A study of Drosophila pseudoobscura with 4 samples.

Results

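The mir-276 copies of *Drosophila pseudoobscura* are 3 microRNA precursors, dps-mir-276a, dps-mir-276b and dps-mir-276c, taken by name from the 231 microRNAs in the deposited count tables. MicroRNAs are short noncoding RNAs, cut from hairpin precursors, that pair with messenger RNAs and lower their output. The small RNAs of 2 male and 2 female samples of adult flies were read with an Illumina MiSeq, a small sequencer of modest output. All flies came from a single stock, kept at 18 °C on a light cycle of 12 h, and were collected at age 7 days, and the study describes its females as unfertilized. Each of the 2 sequencing runs held 1 male and 1 female sample, so that each library is named here by its sex and its run. The replicate number of the sample was taken as its run, which the labels do not state. Nothing in the labels says whether the samples of a sex came from separate cultures, so the p-values measure only the spread between these libraries, which may be technical.

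In *D. melanogaster*, mir-276a is known from the nervous system, where it acts on the transcript of a dopamine receptor in olfactory memory and on that of the clock gene timeless. In the migratory locust, mir-276 is known for its part in the synchronous hatching of eggs. MicroRNAs that share the seed, the bases near the 5′ end that pair with a target, are grouped as a family, and the copies of a family can have nearly identical mature sequences. Short reads of such copies are then hard to assign to one locus. No mature or precursor sequence of the 3 copies was used here, so their similarity was not measured.

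The 3 copies lie on 2 chromosomes. Positions are those of the study's own annotation, and the spans of genes, without their exons, were read from RefSeq for the assembly UCI_Dpse_MV25. Both dps-mir-276a (chromosome X, 51355465 to 51355563) and dps-mir-276b (chromosome X, 51309767 to 51309865) are on the XR arm, which is called the neo-X because it was an autosome before it became part of the X chromosome. They are separated by 45600 bases, with the annotated gene LOC26532124 between them, and neither is within the span of an annotated gene. On the other side of dps-mir-276b, at lower coordinates, the next annotated gene is Or67d, whose ortholog in *D. melanogaster* encodes an odorant receptor for a male pheromone. No other microRNA of the annotation lies between them. The annotation pairs these copies with dme-mir-276a and dme-mir-276b in *D. melanogaster*, and gives no ortholog for dps-mir-276c. This last copy is on chromosome 4 (6348996 to 6349111) and falls inside the protein-coding gene DIP-theta (6319770 to 6358887), a member of a family of neuronal cell surface proteins.

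Library totals were 5697 and 7111 reads in the male and the female library of run 1, and 67076 and 42754 in those of run 2. The second run was therefore 6.01 times deeper in females and 11.8 times deeper in males, and depth and run cannot be told apart. At least 1 read was counted for between 68 and 123 microRNAs per library, and 100 of the 231 microRNAs had 0 reads in all 4 libraries. As a check of the sex labels, dps-mir-318, an ovary-enriched microRNA, took 4.04% and 7.26% of the reads in the female libraries and 0.0351% and 0.00745% in the male libraries.

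All of the mir-276 reads in the deposited tables belonged to a single copy. In run 1, dps-mir-276a had 917 reads in the male library and 1244 in the female library. In run 2, it had 5404 reads in the male library and 3434 in the female library. Both other copies, dps-mir-276b and dps-mir-276c, had 0 reads in every library. Over the 4 libraries this gave 10999 reads of dps-mir-276a in 122638, or 8.97%, while 3 reads, the limit that a count of 0 allows, would be 0.00245%. In a single library the same limit was 0.0527% of the reads in the male library and 0.0422% in the female library of run 1, and 0.00447% and 0.00702% in those of run 2.

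The bounds that follow are on the deposited counts and not on expression. Taken at this limit of 3 reads per library, the count of dps-mir-276a was at least 306-fold that of either other copy in the male library of run 1. It was at least 415-fold in the female library of run 1. The bounds were 1801-fold in the male library and 1145-fold in the female library of run 2. All 4 libraries gave the same order of the counts, and the mean bound was 9.48 on the log2 scale. No test is given, because a copy with 0 reads in every library fixes the sign of each bound. The bounds follow the number of dps-mir-276a reads in each library, so that their differences between libraries say nothing of dps-mir-276b.

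The zeros of dps-mir-276b and dps-mir-276c are those of the deposited tables and cannot be read as an absence of expression. The study's supplementary annotation lists both copies with levels above 0 for the paired libraries, so that the tables used here do not settle their level. Reads that match more than a single copy may have been given to dps-mir-276a or dropped, and their part in these counts was not tested. With 0 reads in every library, the share of dps-mir-276b among the reads of the pair was 0% in males, in females and in both runs. Its upper limit was 0.327% and 0.241% in the male and female libraries of run 1, and 0.0555% and 0.0874% in those of run 2. A difference in this share between sexes or runs could not be seen with every count at 0, and the planned permutation test of it could give no other value than 1. Counting limits of this kind cover counting error only, because reads without molecular identifiers are not independent molecules.

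**Figure D1:**
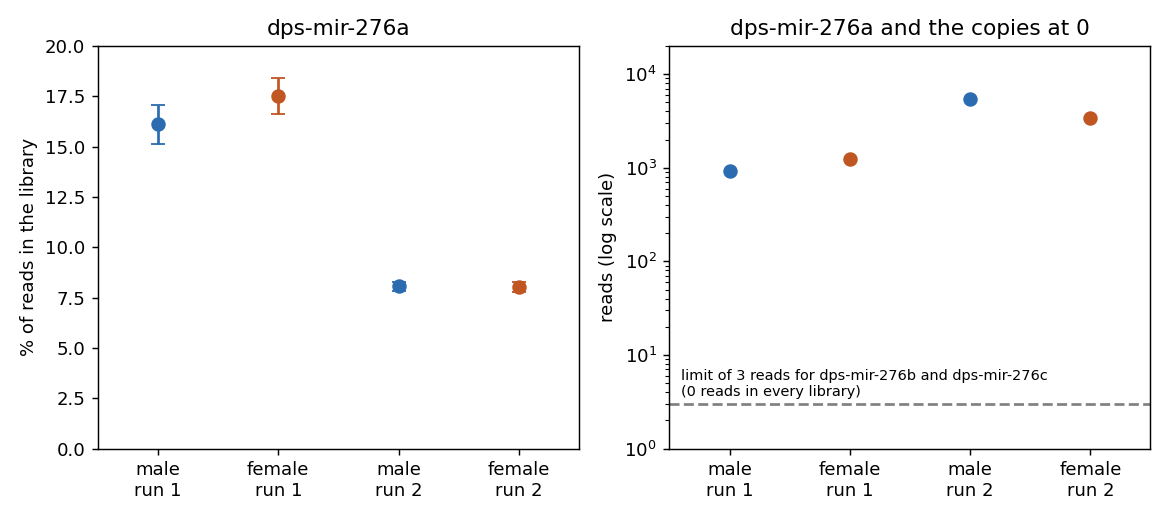
Left, the percentage of each library's reads that belonged to dps-mir-276a, with the exact 95% binomial interval as bars, for the male (blue) and female (orange) libraries of both runs. Right, its reads on a log axis, with the limit of 3 reads for dps-mir-276b and dps-mir-276c as a dashed line. The run 1 libraries lie at 16.1% and 17.5%, those of run 2 at 8.06% and 8.03%, and every library has at least 917 reads of dps-mir-276a against 0 of the other copies.

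Over the 4 libraries together, the other multi-copy families with enough reads to compare were counted at more than a single copy. Of 16 families with 2 or more copies in the tables, 4 had at least 30 reads in each library, and mir-276 was alone among these in having reads from 1 copy only. In the mir-281 family, dps-mir-281-2 held between 86.1% and 92.3% of the family's reads, with 13 and 17 reads of dps-mir-281-1 in the male and female libraries of run 1 and 293 and 133 in those of run 2. In the mir-263 family, dps-mir-263a held between 99.4% and 100% of the reads. Its other copy, dps-mir-263b, had 1 and 0 reads in the male and female libraries of run 1 and 11 and 3 in those of run 2. The mir-9 family had reads from all 3 of its copies, with between 25.7% and 71.5% for dps-mir-9c. How much the mature sequences differ within each family was not measured here, so these shares are given as a description.

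In all libraries dps-mir-276a was among the 3 most abundant microRNAs. Levels are given as CPM, the reads scaled to a common library size, here by TMM, a normalization that sets the libraries to a common reference. By mean level it came after 2 others, with 131980 ± 71950 CPM (SD, n = 4). These were dps-mir-8 (300110 ± 71660 CPM), a regulator of fat body insulin signaling and body growth in *D. melanogaster*, and dps-bantam (132640 ± 19220 CPM), a growth microRNA that represses the cell death gene hid there. The order of dps-bantam and dps-mir-276a cannot be told from these means, which differ by far less than their spread. The next below was dps-mir-277 (77926 ± 62020 CPM), linked to amino acid catabolism in *D. melanogaster*. Its mean also lies within the spread of dps-mir-276a, which still had more reads than dps-mir-277 in every library. Against dps-bantam, dps-mir-276a had more reads in both libraries of run 1 and fewer in both of run 2. Within the libraries, dps-mir-276a held rank 2 in both libraries of run 1 and rank 3 in both of run 2.

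Males and females had almost the same share of dps-mir-276a within a run. In run 1 it took 16.1% of the reads in the male library (exact 95% binomial interval 15.2 to 17.1) and 17.5% in the female library (16.6 to 18.4). In run 2 it took 8.06% in the male library (7.85 to 8.27) and 8.03% in the female library (7.78 to 8.29). The sexes overlapped fully, with 1 high and 1 low library in each. The ratio of the male to the female share was 0.920 in run 1 (0.844 to 1.00, from the counts alone) and 1.00 in run 2 (0.961 to 1.05), and both intervals hold 1.

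Across 84 microRNAs whose mean count, scaled by DESeq2's size factors, reached 1, edgeR's quasi-likelihood test with the run in the model gave dps-mir-276a a log2 fold change, male against female, of 0.08 (standard error 0.38, 95% interval -0.92 to 1.08, adjusted p = 0.957). The mean level was 130450 ± 73880 CPM over the male libraries and 133520 ± 100300 CPM over the female libraries (SD, n = 2 each). These arithmetic means are lower in males, while the fitted value is slightly higher in males, and both differences are far within the spread. The interval covers folds from 0.529 to 2.11, so that this fit does not show that the sexes are alike. Of the 3 copies, 1 was tested and 0 were called (FDR of 10%, difference of at least 25%), beside 11 of all 84 microRNAs, or 13.1%. The other copies, at 0 reads, did not enter the test.

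The sign of this small difference depended also on the scaling. With DESeq2's size factors in place of TMM the log2 fold change was -0.26, and with total counts only it was -0.06. The median log2 fold change of all tested microRNAs also moved with the scaling, from 0.46 with TMM to 0.09 and 0.28, respectively. Relative to that median, dps-mir-276a was at -0.38 with TMM, -0.35 with DESeq2's size factors and -0.33 with total counts. A change of scaling moves every microRNA and the median by nearly the same amount, so that these values could hardly differ. Over the other settings with all libraries, the value ran from -0.52 (without the run in the model) to -0.20 (limma-voom). By log2 fold change it was 32nd from the most female-biased of the 84, and 11th of the 19 whose scaled mean count reached 100. Between the sexes the median of these 19 was 0.03 with TMM, just below the value of dps-mir-276a.

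The runs differed far more than the sexes. The run 1 libraries, at 16.1% and 17.5%, both lay above the run 2 libraries, at 8.06% and 8.03%, with no overlap. In males the share in run 1 was 2.00 times that in run 2 (95% interval 1.86 to 2.14, from the counts alone), and in females 2.18 times (2.04 to 2.33). The mean shares were 16.8% ± 0.988 in run 1 and 8.04% ± 0.0174 in run 2 (SD, n = 2 each). An exact permutation test of this difference gave two-sided p = 0.333, the smallest that 2 against 2 libraries allow. For the sexes the exact permutation test gave two-sided p = 1.

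**Figure D2:**
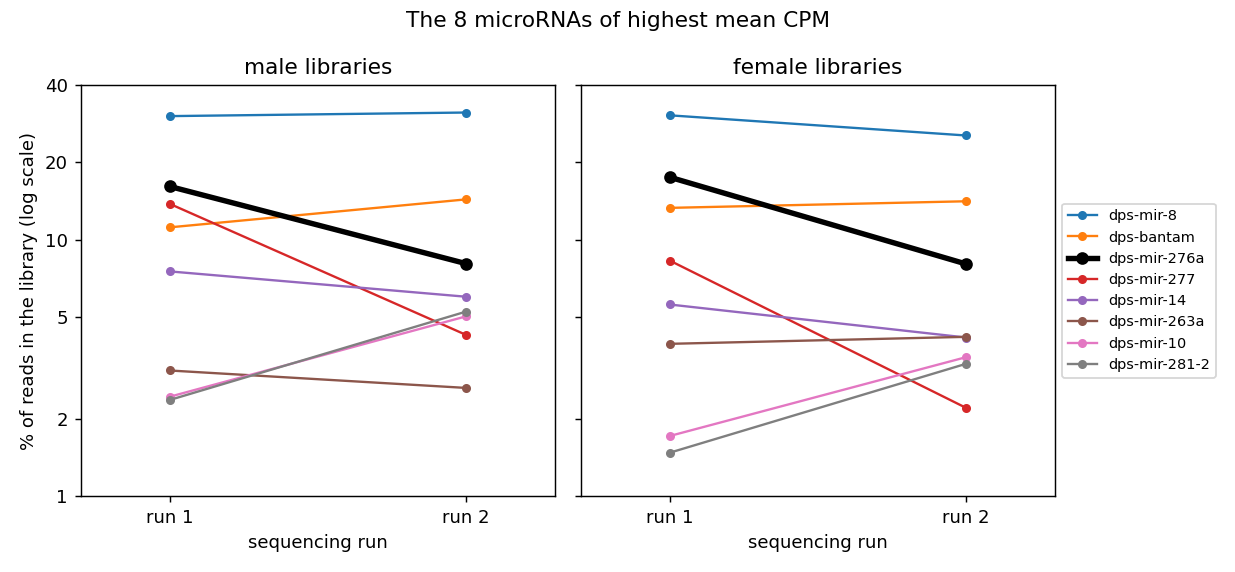
Percentage of the library's reads (log axis) for the 8 microRNAs of highest mean CPM, from run 1 to run 2, in the male libraries (left) and the female libraries (right). Each line joins the libraries of a sex, and dps-mir-276a, the thick black line, goes from 16.1% to 8.06% in males and from 17.5% to 8.03% in females, crossing dps-bantam in both.

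In the same edgeR fit, dps-mir-276a had a log2 fold change of -1.47 for run 2 against run 1 (standard error 0.39, 95% interval -2.49 to -0.45, unadjusted p = 0.0148, adjusted p = 0.117), and it was not called. The means were 193570 ± 15390 CPM in run 1 and 70400 ± 11030 in run 2 (SD, n = 2 each), a level in run 1 that was 2.76 times that of run 2 by the fit. A single microRNA of the 84, or 1.19%, was called between the runs in this fit, dps_2613, while 20 had an unadjusted p-value under 0.05. The call for dps-mir-276a depended on the test and the scaling. Limma-voom called it with an adjusted p of 0.0901, as it did 11 of the 84 microRNAs (13.1%). DESeq2 with a local fit called it with an adjusted p of 2.85e-23, as it did 22 of the 84 (26.2%). With edgeR's test kept, it was called with DESeq2's size factors (log2 fold change -1.69, adjusted p = 1.20e-05, 25.0% of all called), with total counts only (-1.06, adjusted p = 8.12e-10, 40.5% called) and with edgeR's own expression filter (-1.32, adjusted p = 4.65e-07, 36.4% of 55 called). Without the sex in the model (no replicate block) it was not called (adjusted p = 0.258). Leaving out 1 library at a time, the test of runs with no sex term gave -1.63 without the male library of run 2 (adjusted p = 0.00339) and -1.31 without the female library of run 2 (adjusted p = 0.0115), both calls. It was not called without the male library of run 1 (-1.27, adjusted p = 0.391) or without the female library of run 1 (-0.94, adjusted p = 0.277). All of these values had the same direction, higher in run 1.

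**Figure D3:**
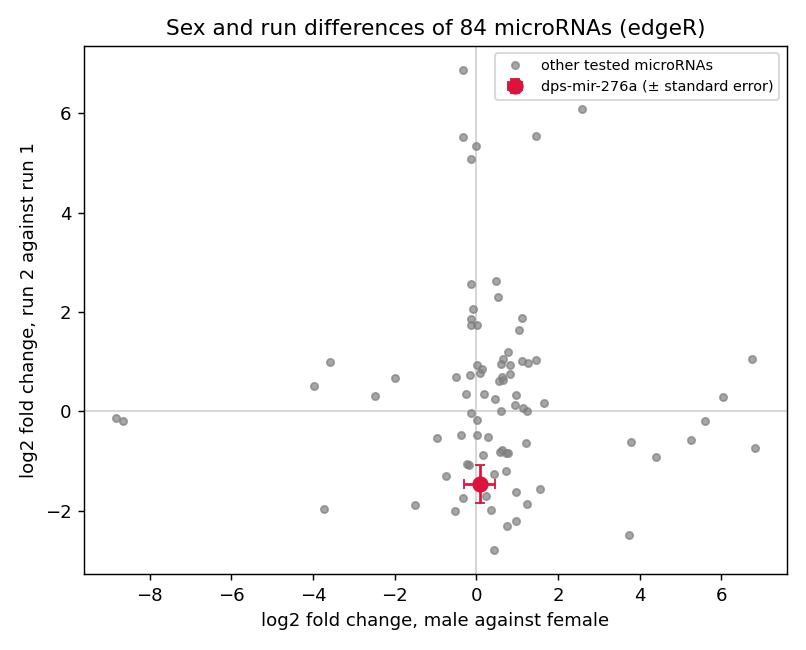
Log2 fold change of run 2 against run 1 (vertical axis) and of male against female (horizontal axis) from edgeR for the 84 tested microRNAs. The red point is dps-mir-276a with its standard errors, at 0.08 for the sexes and -1.47 for the runs, and the gray points are the others. The medians of all 84 are 0.46 and 0.15.

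The median log2 fold change of all tested microRNAs was 0.15 with TMM, 0.50 with total counts and -0.09 with DESeq2's size factors. Relative to it, dps-mir-276a stood at -1.62, -1.56 and -1.60, respectively, values that a change of scaling alone could hardly move. Over the other settings with all libraries, the value ran from -2.43 (no filter on the mean count) to -1.325 (limma-voom), lower in run 2. Ratios within a library need no scaling. The ratio of dps-mir-276a to dps-bantam reads was 1.44 and 1.32 in the male and female libraries of run 1, and 0.562 and 0.570 in those of run 2. This ratio thus lay above 1 in both libraries of run 1 and below 1 in both of run 2, a mean difference of -1.29 on the log2 scale, against 0.06 for males minus females. The ratio to dps-mir-8 was 0.532 and 0.574 in run 1 and 0.258 and 0.316 in run 2, which also separated the runs, with a mean difference of -0.95 on the log2 scale against -0.20 for males minus females. The ratio to dps-mir-277 was 1.17 and 2.11 in the male and female libraries of run 1, and 1.89 and 3.63 in those of run 2. Here the runs overlapped, with a mean difference of 0.74 on the log2 scale (exact permutation test, two-sided, p = 0.667), while both male libraries lay below both female libraries, a mean difference of -0.90 for males minus females (exact permutation p = 0.333, the smallest that 2 against 2 libraries allow). The share of dps-mir-277 itself was 13.8% in run 1 and 4.25% in run 2 in males, and 8.28% and 2.21% in females, so that it was lower in run 2 in both sexes, as that of dps-mir-276a was.

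**Figure D4:**
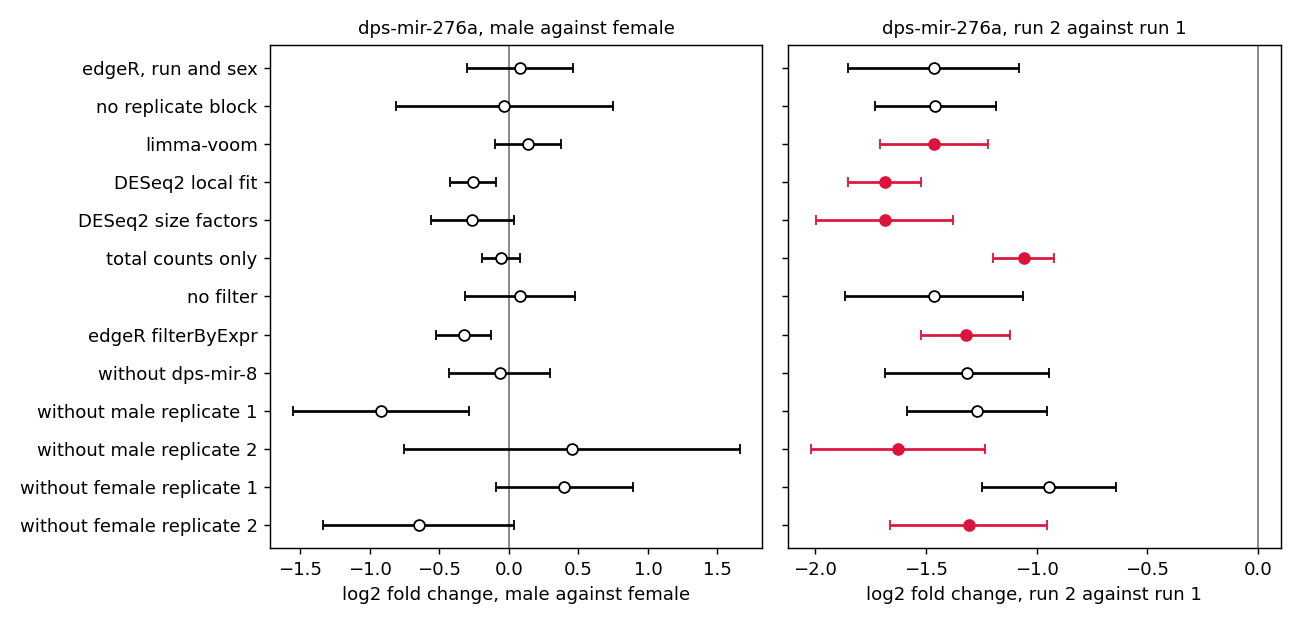
Log2 fold change of dps-mir-276a with its standard error (bars) for male against female (left) and run 2 against run 1 (right) under each setting of the test, filled red where it was called (FDR of 10%, difference of at least 25%). The values between sexes lie between -0.92 and 0.45 with no call, and those between runs between -1.69 and -0.94, all on the same side of 0.

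Among these 19 more abundant microRNAs, dps-mir-276a had the lowest log2 fold change between the runs after dps-mir-277 and dps_7, and 10 of the 19 were higher in run 2 and 9 lower by any amount. The median of these 19 between the runs was 0.35. The microRNAs with the most similar pattern were found by the root mean square difference of log2 CPM, centered on the mean of the 4 libraries, among 51 others whose scaled mean count reached 10. The nearest was dps_7, a precursor of chromosome 3 with no family name, at 0.170, against a median of 1.15 for the 51. It had 54 and 78 reads in the male and female libraries of run 1 and 315 and 156 in those of run 2, or 0.948%, 1.10%, 0.470% and 0.365% of the reads. The second was dps-mir-970, also on the neo-X, at 0.326, with 0.755% and 0.534% of the reads in run 1 and 0.210% and 0.215% in run 2. The third was dps-mir-275, on chromosome 4, known in mosquitoes for its part in blood digestion and egg development, at 0.373, with 0.386% and 0.211% in run 1 and 0.149% and 0.168% in run 2. All 3 had, like dps-mir-276a, a larger share of the reads in both libraries of run 1 than in either of run 2. They were chosen for likeness over these same libraries, so that this is no separate result. The likeness is over 4 libraries only and is a description.

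Beside the mir-276 copies, the neo-X holds 42 microRNAs in the annotation, of which 35 were in the count tables. Of these 35, 11 had 0 reads in all libraries, as did dps-mir-276b, and 19 were tested. None of the 19 was called between the sexes or between the runs by edgeR, beside 13.1% and 1.19% of all microRNAs, respectively. Their log2 fold changes had a median of 0.55 between the sexes, against 0.46 for all, and dps-mir-276a, at 0.08, was above 5 of the 19. Between the runs the median of the 19 was 0.62, with values from -1.98 to 6.87, and 3 of the 19 were lower than dps-mir-276a. The highest of these values is that of dps-mir-193, which had 0 reads in both libraries of run 1 and 26 in each of run 2.

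Since mir-276a is known from the nervous system, other microRNAs known there were set beside it. Of 13 on the list, 12 were in the tables under the listed name, 1 of which had 0 reads in all libraries, and 8 were tested, among them dps-mir-34, dps-mir-987, dps-mir-1000 and dps-let-7. None of the 8 was called between the sexes or the runs by edgeR, beside 13.1% and 1.19% of all tested microRNAs, respectively. Their median log2 fold change was 0.64 between the sexes, with a range of 0.17 to 1.56, against a median of 0.46 for all 84. The upper end is dps-mir-219, which had at most 4 reads in a library. None of the 8 lay below the 0.08 of dps-mir-276a, beside 31 of the 84, and these differences were not tested. Between the runs the median was -0.34, against 0.15 for all, with 4 above 0 and 4 below, and 2 of the 8 were lower than dps-mir-276a. The tables hold dps-mir-210a rather than the listed dps-mir-210, and it was left out of these values. Its log2 fold changes were 1.035 between the sexes and 1.643 between the runs, both above the medians of the 8, with no call. The run median of a list this small depends on such a member.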

How the data were processed

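Small RNA libraries of 2 male and 2 female samples were analyzed. The authors trimmed adapters with Cutadapt, mapped reads to the *D. pseudoobscura* genome with HISAT2 and counted them with featureCounts on annotated precursors, after removing microRNAs that map identically to several regions. The deposited values are raw read counts, not normalized.

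The replicate number was taken as the sequencing run, from the study's account of paired runs. Across the 84 tested microRNAs, the deviations of the male and the female library of a run had a correlation of 0.567. The test was edgeR 4.0.16's quasi-likelihood test (TMM, glmQLFit, glmQLFTest) in R 4.3.3, with run and sex in the model and Benjamini-Hochberg adjustment over all tested microRNAs, those whose base mean, the mean count scaled by DESeq2's size factors, reached 1. Limma 3.58.1 (voom) and DESeq2 1.42.0 were alternatives, with other normalizations, filters and leaving out each library. Approximate standard errors were derived from the F statistic. The fit was tested on simulated data.

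Log2 CPM used a prior count of 2. The microRNAs named were the 3 copies, the 3 nearest in pattern to dps-mir-276a, its neighbors in mean level and called members of the lists. The others (dps-mir-8, dps_2613, dps-mir-318, dps-mir-193, dps-mir-219, dps-mir-210a, the other families and the examples of the neural list) were named after their values were seen. The copies and lists were chosen with earlier results of these data known.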

Additional observations from a re-analysis of the deposited data

Results flagged for a closer look

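The difference between the sexes in dps-mir-276a went in opposite directions in the runs, with a log2 ratio of male to female CPM of -0.16 in run 1 and 0.32 in run 2. The difference between these values was not tested, since each run holds 1 library of a sex. On the share of total reads the values were -0.12 and 0.0044. No group had enough libraries to look for a library that stands apart within it.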

How the results depend on the processing

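The log2 fold change of dps-mir-276a between the sexes, 0.08, was not called under any of 12 alternatives (adjusted p from 0.341 to 0.995). It changed sign with no replicate block (-0.034), DESeq2 (-0.26), DESeq2's size factors (-0.26), total counts only (-0.057), edgeR's expression filter (-0.33) and without dps-mir-8, a setting added after seeing the data (-0.067), and it ran from -0.92 to 0.45 when a library was left out. The cause was not tested. Between the runs, -1.47 kept its direction in all 12 and was called in 7 of them: limma-voom (-1.47), DESeq2 (-1.69), DESeq2's size factors (-1.69), total counts only (-1.06), edgeR's expression filter (-1.32) and 2 of those that leave out a library, which ran from -1.63 to -0.94. With no replicate block it was -1.46. The number of microRNAs called between the sexes, 11, was 17 with DESeq2, 6 with limma-voom, 6 without dps-mir-8 and 2 to 6 without a library. Between the runs, 1 was called by edgeR, 22 by DESeq2, 21 with its size factors, 20 with edgeR's expression filter, 11 by limma-voom, 34 with total counts only, 0 with no replicate block (13 at an unadjusted p under 0.05), 0 without dps-mir-8 (18) and 0 to 5 without a library. In fits that leave out a library, the run or sex term was dropped and the lone library was assumed to vary like the others. With the replicate block in the permutation, the difference in the share of dps-mir-276b stayed at 0 by construction, and its log2 odds were not computed because every count is 0. The mean log2 bound of dps-mir-276a over dps-mir-276b, 9.48, was 9.84 for pooled reads and 9.04 to 9.89 without a library. The counting limits of dps-mir-276b and dps-mir-276c were widest in run 1, the shallower run.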
